A study of Mus musculus with 4 samples.

Results

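The regions described here are 2272 strong LSD1 peaks of C2C12 cells at day 2 of differentiation that had no peak in the list of day 5. They were chosen by 3 deposited values, namely a day 2 peak score of at least 220, a width below 2000 bp on chromosomes 1 to 19, and no overlap of 1 bp or more with any day 5 peak. They make up 5.16% of the 44039 day 2 peaks, cover 2.61 Mb and are called day 2-only sites below. The day 5 list was shorter, with 17446 peaks. Its peaks were also narrower, with a median width of 331 bp against 663 bp for all day 2 peaks. The name therefore describes the 2 lists as well as the sites. The other 5890 of the 8162 day 2 peaks that met the same limits of score, width and chromosome did overlap a day 5 peak and are called persisting sites. A further 93 peaks with a sufficient score and no day 5 peak were left out, 77 because they were at least 2000 bp wide and 16 because they lay on chromosome X.

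C2C12 is an established line of mouse muscle precursor cells, and all groups were kept in 25 mM glucose, first with 10% fetal serum and then with 2% horse serum. An LSD1 precipitate and an input were sequenced 48 h after the serum change (day 2, labelled differentiating) and 120 h after it (day 5, labelled differentiated), giving 4 libraries. With 1 library per group there is no replicate error, so no difference between days could be tested and no p-value is given. Intervals in brackets are 95% intervals for counting error and treat neighbouring peaks as independent, which they are not.

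LSD1, the product of Kdm1a, is a flavin-dependent demethylase of histone H3. It works in nuclear complexes with CoREST proteins and histone deacetylases, and it occupies promoters as well as enhancers. In cultured myoblasts it is known for its part in the start of muscle gene expression and in the control of energy metabolism. Antibody precipitation finds where the enzyme sits on chromatin, not whether it is active there. The deposited positions are in the mouse build mm9. No mm9 genome or annotation was used here, so sites are named by position, without genes, promoters or sequences.

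At the day 2-only sites the day 2 score, a value that the authors' peak caller gave each peak, had a median of 274 [271 to 277], quartiles of 243 and 329, and a range from 220.01 to 761. Persisting sites had a median of 348 [343 to 353], quartiles of 274 and 467, and a range up to 3100. The 2 sets thus overlapped over most of the range of the day 2-only sites. Among the day 2-only sites, 843 (37.1%) scored at least 300, 240 (10.6%) at least 400, 61 (2.68%) at least 500, 16 at least 600 and 5 at least 700. Most sites of the set were therefore close to the limit that defined it. Just inside the limit were sites on chromosome 15 at 31266180 to 31267649, chromosome 16 at 84661755 to 84662746 (both of score 220.01), chromosome 11 at 75212708 to 75214123 (220.04), chromosome 4 at 42962105 to 42963539 and chromosome 15 at 10819713 to 10820683 (both 220.12). Just outside it, among peaks without a day 5 peak, were those on chromosome 7 at 58759259 to 58760110 (219.95), chromosome 17 at 56928169 to 56928833 and chromosome 5 at 30339293 to 30340233 (both 219.9), chromosome 7 at 135018990 to 135020295 (219.83) and chromosome 12 at 78026128 to 78026782 (219.82).

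Absence from the day 5 list became rarer with the day 2 score, and no peak of score 800 or more was absent. The rule used both values, so these shares describe the selection. Among day 2 peaks of any score on the same chromosomes and below 2000 bp, 30068 of 42796 (70.3%) had no day 5 peak. Among those scoring at least 220 the share was 27.8% [26.9 to 28.8], and among those below 220 it was 80.3% [79.8 to 80.7]. Within the strong peaks it went from 45.4% [43.0 to 47.9] at scores from 220 up to 250, through 30.7% [28.2 to 33.2] from 300 up to 350 and 15.5% [13.5 to 17.7] from 400 up to 500, to 3.45% [2.13 to 5.53] from 600 up to 800. None of 231 peaks of score 800 or more (and below 2000 bp) was missing at day 5. Taking 3 peaks as the most that a count of 0 allows, the share could be up to 1.30%, and the upper end of the Wilson interval was 1.64%.

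**Figure D1:**
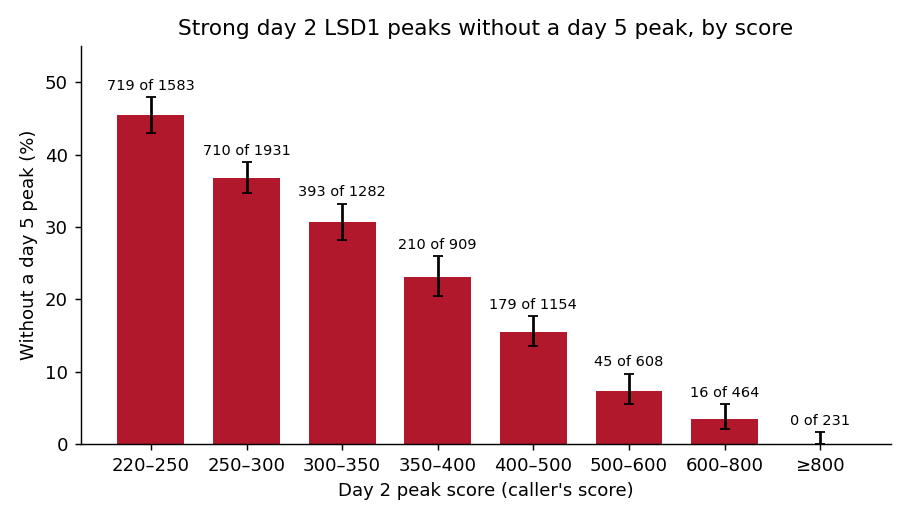
Share of day 2 LSD1 peaks with no day 5 peak (vertical axis, percent) in 8 ranges of the day 2 peak score (horizontal axis), for peaks below 2000 bp on chromosomes 1 to 19. Bars are shares, error bars Wilson 95% intervals, and the numbers above give peaks without a day 5 peak of all peaks in the range, from 719 of 1583 in the lowest range to 0 of 231 in the highest.

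The day 5 scores of persisting sites show how near many of these were to the lower end of the day 5 list, where no peak scores below 50. Day 2 and day 5 scores come from separate peak calls and were not set on 1 scale. Where a persisting site overlapped several day 5 peaks, the one of highest score was taken. Persisting sites of day 2 score 220 up to 250 had a median day 5 score of 77.8 (quartiles 62.3 and 102), and 190 of 864 (22.0%) had a day 5 score below 60. At day 2 scores from 300 up to 350 the median day 5 score was 91.9 and 14.2% were below 60. At day 2 scores from 500 up to 600 the median was 138 and 4.09% were below 60. Some persisting sites at the low end of the strong peaks were thus within 10 score units of the lowest day 5 value. This was not particular to them, since all day 5 peaks had a median score of 72.2 and a lower quartile of 58.1. The lists hold no value for a site that was not called, so weak day 5 signal and no day 5 signal at a day 2-only site cannot be told apart.

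**Figure D2:**
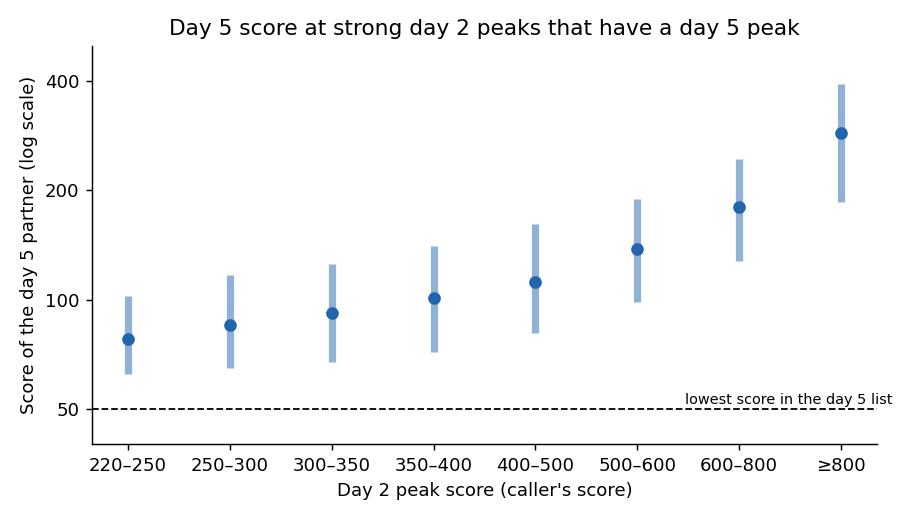
Score of the overlapping day 5 peak (vertical axis, log scale) at the 5890 persisting sites, by day 2 score (horizontal axis). Points are medians, bars run from the lower to the upper quartile, and the dashed line is the lowest score in the day 5 list, 50; medians go from 77.8 at the left to 288 at the right.

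At like day 2 scores from 250 upwards, day 2-only sites had larger median widths than persisting sites. Both sets were selected on score, day 5 overlap and a width limit, so this is a description. Over all scores the order was the opposite, with a median width of 1115 bp [1102 to 1135] for day 2-only and 1155 bp [1145 to 1166] for persisting sites. In both sets width was mostly larger at higher scores, and persisting sites had the higher scores. From 220 up to 250 the medians were alike, at 989 bp [959 to 1012] and 986.5 bp [965 to 1014]. From 250 up to 300 they were 1099 bp [1068 to 1116] and 1040 bp [1019 to 1063], with intervals apart. From 350 up to 400 the intervals overlapped, with medians of 1261.5 bp [1219 to 1323] and 1189 bp [1151 to 1233]. From 400 up to 500 the medians were 1358 bp [1317 to 1416] and 1261 bp [1231 to 1292]. From 500 up to 600 the 45 day 2-only sites had a median of 1517 bp [1404 to 1608] and the 563 persisting sites one of 1334 bp [1289 to 1373]. From 600 up to 800 the intervals overlapped again, at 1678 bp [1251 to 1942] for 16 day 2-only sites and 1334 bp [1296 to 1386] for persisting sites. The quartiles of the sets overlapped in all 7 score ranges that held day 2-only sites, so width did not separate them. In ranges of only 10 score units, a division chosen after these values were seen, day 2-only sites had the larger median width in 26 of 33 ranges, and the median difference was 89 bp.

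**Figure D3:**
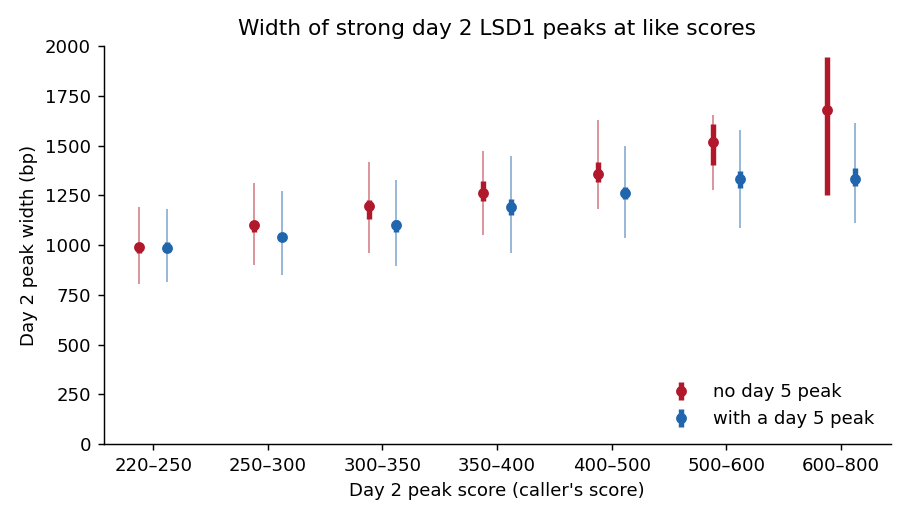
Width of strong day 2 peaks in bp (vertical axis) in 7 ranges of the day 2 score (horizontal axis), without a day 5 peak (red) and with one (blue). Points are medians, thick bars 95% intervals of the median and thin lines the quartiles; the red medians lie above the blue ones from a score of 250 upwards, as 1358 against 1261 bp from 400 up to 500.

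The width difference can also be given as shares of peaks. These are the same peaks and the same values, so the shares restate the difference and add no support to it. Each score range was divided into 4 width classes of equal size. Among peaks of score 400 up to 600, 7.92% [5.75 to 10.8] of the narrowest class (up to 1066 bp) had no day 5 peak, against 15.7% [12.6 to 19.4] of the broadest class (1546 bp or more). The broadest class also had the slightly higher median score, 481 against 459. At scores from 300 up to 400 the narrowest and broadest classes gave 21.5% [18.3 to 25.2] and 30.8% [27.1 to 34.8]. From 220 up to 300 they gave 39.0% [35.9 to 42.3] and 43.1% [39.9 to 46.4], with overlapping intervals. Peaks of at least 2000 bp, which were not among the sites, lacked a day 5 peak in 77 of 641 cases at scores of at least 220; their scores were not matched.

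The strongest day 2-only sites lay on several chromosomes and ranked from place 473 to place 868 of the day 2 list. The highest score, 761, belonged to a site 1169 bp wide on chromosome 12 at 74576982 to 74578150, and the nearest day 5 peak was 13.5 kb away. Another of the 10 highest lay 313 kb further along, on chromosome 12 at 74891366 to 74892263 (score 692), and was the narrowest of them at 898 bp. Also on that chromosome, among the 10, was one at 88167143 to 88168925 (score 663). On chromosome 6 the site at 136994446 to 136995960 (score 737) had no other day 2 peak within 50 kb, and its nearest day 5 peak was 27.0 kb away. The same isolation was seen on chromosome 17 at 15841024 to 15842965 (score 629, width 1942 bp), where the nearest day 5 peak was 120 kb away. By contrast, the site on chromosome 17 at 36002133 to 36003700 (score 723) had 15 other day 2 peaks within 50 kb and a day 5 peak of score 197 at a distance of 799 bp. The site on chromosome 4 at 132568535 to 132570510 (score 706, width 1976 bp) had a day 5 peak 1.14 kb away. The remaining 3 were on chromosome 9 at 70503892 to 70505850 (score 726), chromosome 5 at 117768529 to 117769779 (score 672) and chromosome 15 at 85150221 to 85151142 (score 660). These 10 sites thus included both lone peaks and members of dense groups.

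A day 2-only site of score 500 or more was found on 17 of the 19 chromosomes, all but chromosomes 16 and 18. The 61 such sites had a median width of 1529 bp [1411 to 1620], 5 other day 2 peaks within 50 kb (median) and a median distance of 19.9 kb [11.3 to 32.7] to the nearest day 5 peak. Of these, 4 lay within 1 kb of a day 5 peak. The highest-scoring sites of chromosomes not yet named were, on chromosome 11, 109582439 to 109584289 (score 628), on chromosome 10, 18886974 to 18888766 (621), and on chromosome 8, 73027878 to 73029205 (617). On chromosome 3 it was 40997857 to 40999830 (603), on chromosome 7, 91176982 to 91178386 (598), and on chromosome 1, 136140693 to 136142490 (597). That of chromosome 2, 14976103 to 14977413 (588), stood alone, with no other day 2 peak within 50 kb and 917 kb to the nearest day 5 peak. That of chromosome 14, 26568391 to 26569919 (534), was the opposite, with 22 other day 2 peaks within 50 kb and a day 5 peak 140 bp away. The last 4 were on chromosome 19 at 42054722 to 42056341 (512), chromosome 13 at 49436052 to 49437653 (503), chromosome 18 at 69941547 to 69942560 (471) and chromosome 16 at 17451339 to 17452530 (450.5).

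The broadest day 2-only sites were just below the width limit and mostly of moderate score. Those on chromosome 17 at 83721853 to 83723844 (score 339) and chromosome 16 at 92827643 to 92829634 (312) were both 1992 bp wide. They were followed by chromosome 13 at 104710121 to 104712110 (476), chromosome 1 at 94076208 to 94078192 (385), chromosome 17 at 25677239 to 25679219 (281), chromosome 1 at 178764166 to 178766144 (272), the chromosome 4 and chromosome 3 sites of score 706 and 603 named above, chromosome 12 at 53735975 to 53737947 (432) and chromosome 1 at 71860282 to 71862254 (225). Only the site on chromosome 17 from 25677239 lay within 1 kb of a day 5 peak, at 429 bp. The day 5 peak nearest to each of these 10 was between 208 and 961 bp wide.

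Few day 2-only sites were narrow misses of a day 5 peak. The nearest day 5 peak was a median of 18.7 kb away [17.3 to 20.1], with quartiles of 5.31 and 50.6 kb. Of the 2272 sites, 18 (0.792%) lay within 100 bp of a day 5 peak, 192 (8.45% [7.38 to 9.67]) within 1 kb, 554 (24.4% [22.7 to 26.2]) within 5 kb and 2026 (89.2%) within 100 kb. In 161 of the 192 cases within 1 kb (83.9%), the day 5 peak overlapped a different day 2 peak, and in 31 it overlapped none. The same share over all day 5 peaks is not given here, so 83.9% is not read as particular to these cases. Day 5 peaks this close to a day 2-only site had score quartiles of 56.7 and 99.2, near the 58.1 and 103 of all day 5 peaks. Counting a day 5 peak within 1 kb as a match would leave 2080 day 2-only sites.

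The distances resembled those of other day 2 peaks. Weaker day 2 peaks without a day 5 peak were a median of 19.4 kb [18.9 to 19.9] from one, and 7.40% [7.10 to 7.71] had one within 1 kb. For persisting sites, the nearest day 5 peak besides those they overlapped was a median of 16.5 kb away [15.9 to 17.3], and 9.08% [8.38 to 9.84] had one within 1 kb. The interval of the day 2-only median overlapped that of the weaker peaks and began just above the end of that of the persisting sites.

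**Figure D4:**
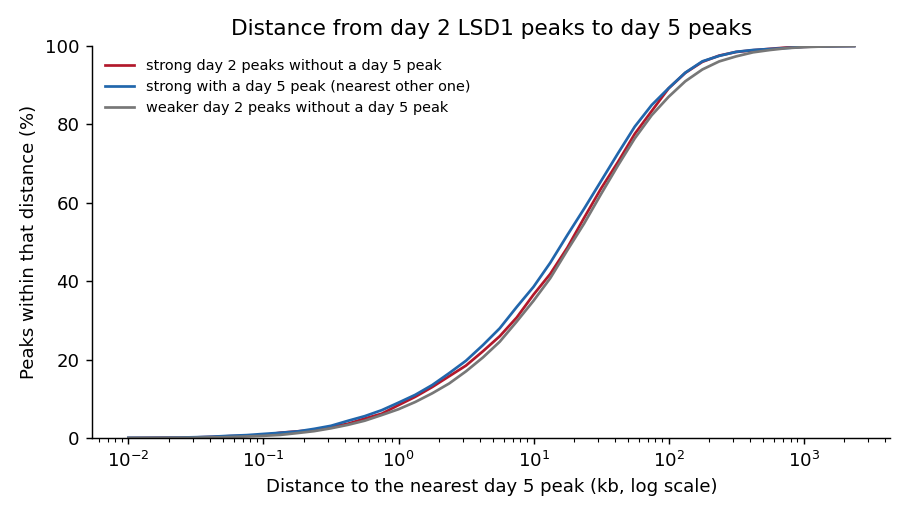
Cumulative share of peaks (vertical axis, percent) with a day 5 peak within the distance on the horizontal axis (kb, log scale), for day 2-only sites (red), persisting sites with their overlapping day 5 peaks left out (blue) and weaker day 2 peaks without a day 5 peak (grey). The 3 curves run close together, and at 5 kb they stand at 24.4%, 26.0% and 22.8%.

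The extremes of distance were as follows. The day 2-only sites nearest to a day 5 peak lay on chromosome 18 at 16965126 to 16966251 (10 bp between the peaks), chromosome 7 at 90865705 to 90866573 (11 bp), chromosome 9 at 116127686 to 116128326 (16 bp), chromosome 12 at 112901780 to 112903167 and chromosome 7 at 96551965 to 96553018 (29 bp each). The absence of a day 5 peak at these 5 sites depends on where the caller placed the borders. The farthest lay on chromosome 16 at 70313834 to 70315076 (score 271), 2348 kb from a day 5 peak. Next were chromosome 5 at 26547877 to 26549154 (score 522, 1410 kb), chromosome 10 at 50311641 to 50313105 (418, 1352 kb), chromosome 4 at 73897373 to 73898718 (387, 1290 kb) and chromosome 6 at 4036613 to 4037376 (277, 1211 kb). The last 4 had no other day 2 peak within 50 kb. In all, 22 day 2-only sites (0.968%) were more than 500 kb from any day 5 peak, against 50 persisting sites (0.849%) that were this far from a further one.

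Day 2-only sites sat among other LSD1 peaks as densely as persisting sites did. Both had a median of 5 other day 2 peaks within 50 kb (quartiles 2 and 8), and 153 day 2-only sites (6.73%) and 391 persisting sites (6.64%) had none. Viewed from the density, strong peaks with no neighbour lacked a day 5 peak in 28.1% [24.5 to 32.0] of cases, those with 3 to 5 neighbours in 28.2% [26.4 to 30.0] and those with 11 or more in 26.0% [23.5 to 28.7]. These intervals overlapped, although the densest class also had the highest median score (331, against 314 for no neighbour).

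Within 50 kb, weaker peaks overlapped a day 5 peak about as often around a day 2-only site as around a persisting site, but not under every definition. The rule did not choose these neighbours, which were day 2 peaks below the score limit within 50 kb of a strong peak. A day 5 peak at a persisting site could, however, also overlap a weaker peak beside it. By the rule this cannot occur at a day 2-only site. Around day 2-only sites, 1608 of 8173 such peaks (19.7% [18.8 to 20.6]) had a day 5 peak. Around persisting sites it was 3261 of 16124 (20.2% [19.6 to 20.9]). Of all weaker day 2 peaks on chromosomes 1 to 19 and below 2000 bp, 80.3% lacked a day 5 peak, so both shares were near that of weaker peaks in general. Because 4711 peaks neighboured sites of both kinds, those near 1 kind only were also counted, with 19.4% [18.1 to 20.7] beside day 2-only and 20.4% [19.6 to 21.1] beside persisting sites. The median score of these neighbours was 87.5 in both. Within 20 kb the values for neighbours of 1 kind were 18.6% [17.2 to 20.2] and 21.3% [20.4 to 22.2]. These intervals were apart by a narrow margin, with a difference of 2.66 percentage points, against 0.981 within 50 kb. For all neighbours within 20 kb the shares were 18.9% [17.8 to 20.2] and 21.0% [20.2 to 21.8], with intervals that just overlapped. No difference is read from the 20 kb shares. When a day 5 peak within 1 kb was counted as overlap, the shares for all neighbours within 50 kb were 25.7% [24.7 to 26.7] around day 2-only and 29.3% [28.6 to 30.0] around persisting sites, also with intervals apart. That setting was applied to the strong peaks too, so only persisting sites could have a day 5 peak within 1 kb. A weaker peak close by could be matched by the same day 5 peak, so no difference is read from these 1 kb shares.

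Strong peaks that follow each other along a chromosome were also compared, as a description, since presence at day 5 is a value that chose the sites. After a day 2-only site, the next strong peak also lacked a day 5 peak in 672 of 2266 cases (29.7% [27.8 to 31.6]). After a persisting site this was so in 1594 of 5877 (27.1% [26.0 to 28.3]). Where the next strong peak began within 50 kb the shares were 30.8% [27.7 to 34.0] and 26.3% [24.5 to 28.2], with intervals that overlapped slightly, so no difference is read from them. In order along the chromosomes, 1128 day 2-only sites stood singly between persisting sites or chromosome ends, 662 formed pairs, and 482 (21.2%) were in 141 runs of 3 or more. Of all strong peaks, 27.8% were day 2-only. That share is not a comparator for the share in runs, so no clustering is read from the runs. Successive day 2-only sites were a median of 373 kb apart, and 95 neighbouring pairs were within 10 kb.

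The longest runs held 6 strong peaks, and there were 4 of them. The counts below include each run's own sites, which lack a day 5 peak by the rule. Among day 2 peaks of any score below 2000 bp on chromosomes 1 to 19, 70.3% had no day 5 peak. Runs were picked for such sites, so no regional loss is read from the counts. On chromosome 12 at 55413891 to 56594007 (1.18 Mb), the 6 sites scored from 226 to 392, and 7 of the 36 day 2 peaks of any score in the stretch had a day 5 peak. On chromosome 8 at 90839934 to 93358537 (2.52 Mb) it was 5 of 20, on chromosome 7 at 96551965 to 99574181 (3.02 Mb) 7 of 58, and on chromosome 18 at 5835290 to 10182685 (4.35 Mb) 8 of 55. There were 7 runs of 5, which tied for the next place. In the most compact of these, on chromosome 19 at 47404932 to 47566838 (0.162 Mb), 5 of 22 day 2 peaks had a day 5 peak, and on chromosome 2 at 60535509 to 60709465 (0.174 Mb) it was 1 of 13. On chromosome 12 at 53703844 to 53994492 (0.291 Mb, scores from 244 to 432) none of 17 had one, and this stretch included one of the 10 broadest sites. The other 4 runs spanned over 1 Mb each: chromosome 9 at 40916222 to 42072884 (7 of 29), chromosome 3 at 104747448 to 106351161 (9 of 33), chromosome 4 at 142751182 to 144540203 (4 of 15) and chromosome 8 at 75169900 to 80042589 (10 of 49).

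The 2272 sites were spread over 1968 windows of 100 kb, of which 1711 held 1 site, 217 held 2 and 40 held 3 or more. The fullest, on chromosome 4 at 154500001 to 154600000, held 6 day 2-only sites among 9 strong peaks. Its day 2-only sites scored from 240 to 349, and 2 of them, at 154547106 to 154548554 and 154548573 to 154549064, were 18 bp apart. Persisting strong peaks lay between them at 154509750 to 154510627 (score 330) and 154537121 to 154538140 (329), and beyond the last of them at 154590023 to 154590955 (256). The scores of both kinds overlapped. Windows with 4 sites were chromosome 4 at 134800001 to 134900000 (of 5 strong peaks), chromosome 4 at 137000001 to 137100000 (of 6), chromosome 6 at 72600001 to 72700000 (of 7) and chromosome 19 at 47500001 to 47600000 (of 4). Windows with 3 sites that came next by position were chromosome 1 at 75300001 to 75400000 and at 135000001 to 135100000, and chromosome 2 at 32200001 to 32300000, at 60500001 to 60600000 and at 102700001 to 102800000. In the window on chromosome 2 from 32200001, none of 10 day 2 peaks had a day 5 peak, but 3 of these lacked one by the rule. Among all weaker day 2 peaks, 80.3% lacked one. These windows were picked as extremes.

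Among windows of 1 Mb, chromosome 5 from 136 to 137 Mb held the most, with 11 day 2-only sites of 19 strong peaks. Next were chromosome 6 from 72 to 73 Mb (10 of 27), chromosome 5 from 125 to 126 Mb (9 of 25), chromosome 10 from 80 to 81 Mb (9 of 24) and chromosome 4 from 154 to 155 Mb (7 of 10). Other windows, such as those on chromosome 11, also held 7, and the one on chromosome 4 was taken by position. In each of the 3 windows with 24 or more strong peaks, persisting sites outnumbered day 2-only sites. In those on chromosome 5 from 136 Mb and on chromosome 4 from 154 Mb they were the minority. Of all strong peaks, 27.8% were day 2-only. The windows were picked for holding the most such sites, so no regional loss is read from these counts.

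All 19 chromosomes carried day 2-only sites, and their share of the strong peaks ranged from 20.7% to 34.1%. Chromosome 15 had the lowest share, 109 of 526 (20.7% [17.5 to 24.4]), followed by chromosome 3 with 90 of 405 (22.2% [18.4 to 26.5]) and chromosome 14 with 63 of 278 (22.7% [18.1 to 27.9]). Chromosome 4 had the highest, 181 of 531 (34.1% [30.2 to 38.2]), before chromosome 18 with 79 of 241 (32.8% [27.2 to 38.9]). Strong peaks of chromosome 15 also had the highest median score (347.5) and those of chromosome 4 the lowest (299.6). At scores from 220 up to 300 the order changed: chromosome 3 had 30.3% [24.1 to 37.4], chromosome 15 31.3% [25.2 to 38.1] and chromosome 14 31.4% [23.8 to 40.1], while chromosome 4 had 43.6% [37.8 to 49.6] and chromosome 18 had 49.5% [40.4 to 58.7]. Chromosomes 3, 14 and 15 thus remained the lowest at like scores, and chromosome 4 lay within the range of most others. The intervals do not allow for the choice of extremes among 19.

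**Figure D5:**
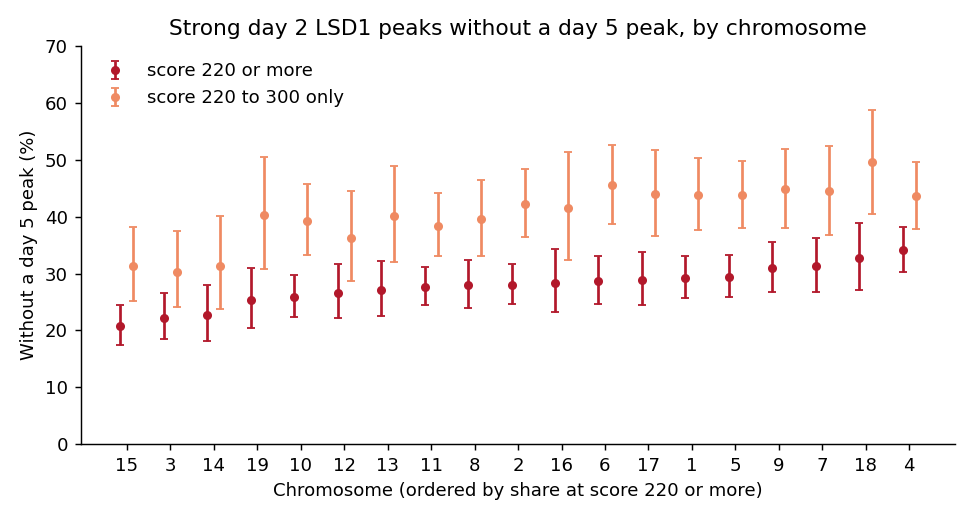
Share of strong day 2 LSD1 peaks without a day 5 peak (vertical axis, percent) on each of the 19 autosomes (horizontal axis, in order of the share), for all scores of at least 220 (red) and for scores from 220 up to 300 (orange). Points are shares and bars Wilson 95% intervals; chromosomes 15, 3 and 14 are lowest in both, at 31.4% or less in orange.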

How the data were processed

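LSD1 ChIP-seq and input libraries of C2C12 cells were grouped by the sample titles, 1 library per group. Input libraries and read totals were not analysed here, so depth is unknown. Per the file headers, the authors ran MACS in Galaxy, with 1 list per LSD1 library. Its version, cutoff and use of the input are not stated there or in the labels. Bowtie2, deepTools and mm9 are named, without roles, per the submitters' processing notes. The authors deposited for each peak a position and a score, whose scale the headers do not state; other values are bp positions in the deposited lists, with starts counted from 0 there and from 1 here.

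Distances are the bases between peak borders, and windows use peak midpoints. Intervals of shares are Wilson's at 95%, and those of medians come from binomial order statistics. The interval of the difference in median width is an approximation that combines the squared lengths of both median intervals. Named regions are the 10 sites of highest score, the 10 widest, the highest on each chromosome, the 5 nearest to and farthest from a day 5 peak, the 5 on either side of the score limit, the 10 fullest windows of 100 kb, the 5 fullest of 1 Mb and the 5 longest runs, here 11 because 7 runs tied for the last place. The sites and lists were chosen with earlier results of these data known. Overlap counting was tested on simulated data and gave the same 30646 day 2 peaks without a day 5 peak as bedtools 2.31.1. Planned promoter, GC, motif, sequence and gene list values were not run, since the gene and promoter tables at hand are of the build GRCm38.p6 and coordinates were not converted. Tools were SciPy 1.17.1, pandas 2.3.3 and NumPy 2.4.6 under Python 3.11.15, with plots by Matplotlib 3.10.9.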

Additional observations from a re-analysis of the deposited data

How the results depend on the processing

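Of 35 alternatives for 9 values, 16 stayed within the interval of the reported value (counts within 1.5 times), 14 moved and 5 reversed. Those that reversed were all of the difference in median width, day 2-only minus persisting, which was -40 bp over all strong peaks. It was 22 bp at a score limit of 300, 30 bp at scores from 220 up to 300, 79.5 bp from 300 up to 400, 83.5 bp at 400 or more and, in ranges of 10 score units added after the data were seen, 89 bp. The interval at a limit of 300 ran from -10.7 to 54.7 bp, so no direction is read there; the cause of the reversals was not tested. With all sequences and widths the difference was -67 bp and 26.7% of strong peaks lacked a day 5 peak. A score limit of 300 left 843 sites, 18.1% of the strong peaks, of which 68 were in runs of 3 or more, and 22.4% and 24.0% of weaker neighbours had a day 5 peak around day 2-only and persisting sites. Counting a day 5 peak within 1 kb as overlap gave a share of 25.5% and, for the neighbours, 25.7% and 29.3%, whose intervals were apart. Under that setting only persisting sites could have a day 5 peak within 1 kb, so no difference is read from these neighbour shares. In part these moves follow from the settings. At a limit of 300, the weaker neighbours take in peaks of score 220 up to 300. A wider overlap can only lower the share of strong peaks without a day 5 peak. Beyond that, the cause of these moves was not tested. A neighbourhood of 20 kb gave a median of 2 other day 2 peaks around both kinds. In it, 18.9% of weaker neighbours had a day 5 peak around day 2-only sites and 21.0% around persisting sites. A distance of 20 kb took in 51.8% of day 2-only sites. No paired analysis was possible because each group has 1 library, and no replicate could be left out. The unknown depth and the calling limit of the day 5 list bound what absence from it means.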
